A study of Mus musculus with 10 samples.

Results

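Lyz2, Ear2, S100a8, S100a9, Fn1, F13a1, Vcan, Fcgr1, Ms4a6c and Ms4a4c are genes best known from monocytes and neutrophils, and their transcripts were followed here in dendritic cell precursors of the mouse spleen. They were taken by gene symbol, 10 of the 52550 genes of the deposited table, and 9 of the 10 passed the filter on low values. Messenger RNA was sequenced from sorted precursors of C57BL/6 mice in 10 libraries. The groups were pre-cDC2 of CD11c-cre Adam10fl/fl mice (KO, n = 2), pre-cDC2 of wild-type mice (WT, n = 2), pre-cDC1 of KO mice (n = 3) and pre-cDC1 of WT mice (n = 3). In the KO mice Cre is made under the promoter of CD11c (Itgax), an integrin of dendritic cells that other myeloid cells can also make, and ADAM10 is a membrane protease. The sources used here do not give the deleted exons, the age of the mice, the sort gates or whether the WT mice carried Cre or the floxed allele. Sample titles call the pre-cDC1 libraries DN and the pre-cDC2 libraries Ly6C. The labels do not say that libraries of a group came from separate animals, so p-values measure only the spread between these libraries, which may be technical.

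Conventional dendritic cells (cDC) arise from bone marrow progenitors that also give rise to monocytes, and committed precursors (pre-cDC1 and pre-cDC2) seed the spleen before they mature. Classical monocytes carry Ly6C on their surface and make secreted lysozyme, matrix proteins and an immunoglobulin receptor, whereas neutrophils load their cytosol with the S100A8 and S100A9 proteins. None of these genes is strictly limited to one lineage. In a bulk library, fewer cells of a type and less RNA per cell cannot be told apart.

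The promoters of the 4 genes that passed a test between the precursors are given first, since these genes moved in opposite directions. Each is RefSeq sequence of build GRCm38.p6, 5′ to 3′ on the gene's own strand, from 250 bases before to 50 bases after the annotated start. Capitals mark matches on either strand to the letters GAGGAA (a PU.1 core), TTNCNNAA (a C/EBP site) and GAAANNGAA (an IRF element). Lyz2 is read from the minus strand of chr10:117282223-117282522, Ear2 from the plus strand of chr14:44102404-44102703, Ms4a6c from the plus strand of chr19:11469118-11469417 and Ms4a4c from the plus strand of chr19:11407411-11407710.
Lyz2: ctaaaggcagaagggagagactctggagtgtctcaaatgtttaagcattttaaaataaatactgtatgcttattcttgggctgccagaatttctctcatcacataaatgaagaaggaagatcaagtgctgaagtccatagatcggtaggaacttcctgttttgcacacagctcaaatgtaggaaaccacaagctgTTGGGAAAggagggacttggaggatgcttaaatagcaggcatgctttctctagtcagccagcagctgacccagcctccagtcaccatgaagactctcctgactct
Ear2: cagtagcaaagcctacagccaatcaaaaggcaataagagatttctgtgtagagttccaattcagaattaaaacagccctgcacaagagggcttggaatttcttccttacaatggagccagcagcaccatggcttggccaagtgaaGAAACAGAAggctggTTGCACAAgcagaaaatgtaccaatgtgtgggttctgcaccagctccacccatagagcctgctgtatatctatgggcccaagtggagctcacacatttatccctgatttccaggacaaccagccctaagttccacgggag
Ms4a6c: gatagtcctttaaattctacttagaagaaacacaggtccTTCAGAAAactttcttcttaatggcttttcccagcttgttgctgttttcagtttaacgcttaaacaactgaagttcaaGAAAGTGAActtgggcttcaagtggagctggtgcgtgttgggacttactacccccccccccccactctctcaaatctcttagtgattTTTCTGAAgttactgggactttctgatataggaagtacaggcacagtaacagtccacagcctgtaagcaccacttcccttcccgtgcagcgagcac
Ms4a4c: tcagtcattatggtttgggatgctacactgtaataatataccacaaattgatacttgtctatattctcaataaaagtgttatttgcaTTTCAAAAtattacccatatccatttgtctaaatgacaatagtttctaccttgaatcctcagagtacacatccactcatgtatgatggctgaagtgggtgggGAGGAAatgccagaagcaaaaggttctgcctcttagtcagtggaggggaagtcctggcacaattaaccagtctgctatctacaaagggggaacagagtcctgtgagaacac

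Lyz2 held 1 match to the C/EBP letters, Ear2 held 1 C/EBP and 1 IRF match, Ms4a6c held 2 C/EBP matches and 1 IRF match, and Ms4a4c held 1 PU.1 and 1 C/EBP match. Of the 10 genes, 9 had at least 1 promoter window in the RefSeq table, 10 windows in all, because F13a1 had 2. PU.1 letters were found in 5 of those windows, C/EBP letters in 8 and IRF letters in 2, against 28.28%, 40.68% and 8.56% of all 32851 windows of that length. The genes that were higher and those that were lower in pre-cDC2 both had C/EBP matches, so these letters did not sort the genes by direction. No match overlapped another in the windows printed. A match describes the sequence alone, and no binding was measured.

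Expression was deposited as log2 RPKM, a read number scaled to exon length and library size, and the read numbers could be worked back from it. Libraries held between 7861652 and 13177281 reads assigned to genes. Xcr1, a chemokine receptor of the cDC1 line, had 44 to 72 reads in the pre-cDC2 libraries and 8207 to 14480 in the pre-cDC1 libraries. Ly6c2, the gene of the Ly6C label, had 16221 to 23924 in pre-cDC2 and 160 to 341 in pre-cDC1. Both genes thus separated the libraries as labelled, but no marker of the cDC2 line was checked. Most T cell, NK cell and plasmacytoid DC genes of the lists below were also higher in pre-cDC2. Adam10 had 909 and 742 reads in KO pre-cDC2 against 228 and 1261 in WT pre-cDC2, and 3 to 13 in KO pre-cDC1 against 10 to 48 in WT pre-cDC1. These counts cover the whole gene and not the deleted part alone, so they do not check the genotype, and KO and WT below are what the labels say. WT pre-cDC2 replicate 2 stood apart from its partner, with a correlation of 0.774 across tested genes, against 0.867 to 0.886 within the other groups. Its summed RPKM of 15 T cell genes was 162.3, against 2887 in WT pre-cDC2 replicate 3 and 1958 to 2082 in KO pre-cDC2. It held the highest value among the 4 pre-cDC2 libraries for 9 of the 10 genes, Ms4a4c excepted. For the 9 tested genes, differences between WT pre-cDC2 and WT pre-cDC1 are therefore also given without each of these libraries, here or under the dependence on processing; for genes outside the 10 they are not.

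Genes were compared with limma on the deposited log2 RPKM over 14787 genes, and a gene was called where its Benjamini-Hochberg adjusted p was under 0.05. A positive log2 difference means higher in the group named first. The first question was how the precursors differ from each other in these genes. Ear2 and Lyz2 were far lower in pre-cDC2 than in pre-cDC1 in both genotypes. Ms4a4c was higher in pre-cDC2 in both genotypes, and Ms4a6c passed the test for the same direction in KO mice. S100a8, S100a9, Fn1, F13a1 and Fcgr1 passed it in neither genotype, and Vcan was not tested. In KO mice 4 of the 9 tested genes were called, 2 higher and 2 lower in pre-cDC2, where 20.8% of all genes were called, 10.7% higher and 10.1% lower. In WT mice 3 of the 9 were called, 1 higher and 2 lower, where 11.5% of all genes were called, 4.88% higher and 6.59% lower. The median difference of the 9 genes was 1.46 in KO mice and 0.59 in WT mice, against 0.09 and 0.06 over all tested genes.

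**Figure D1:**
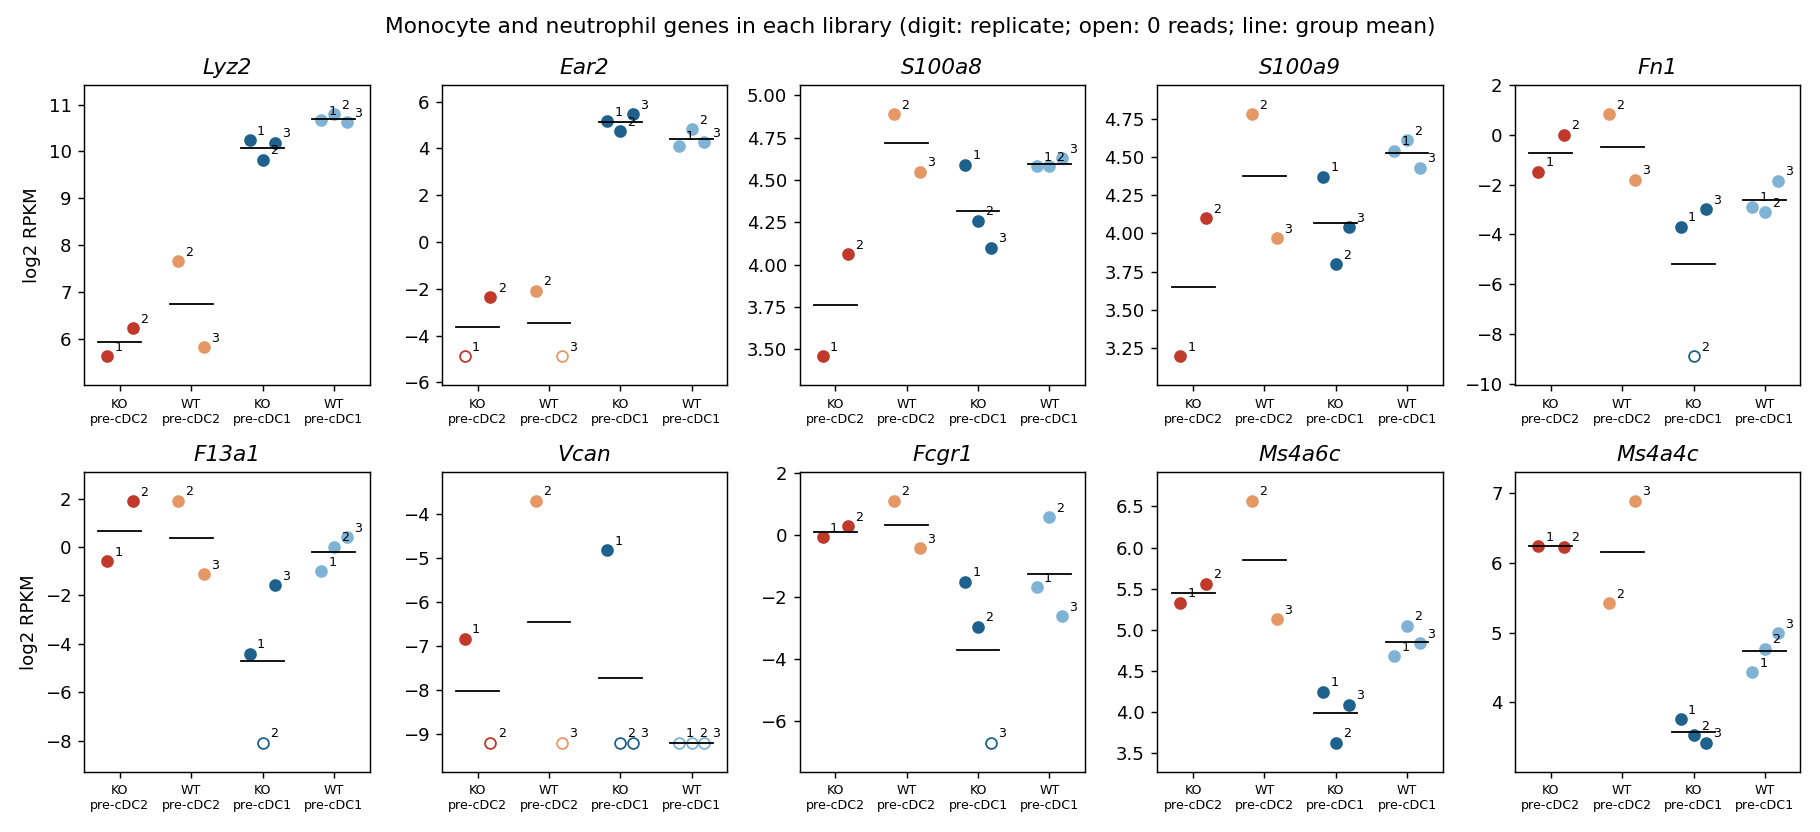
Log2 RPKM of each of the 10 genes (1 panel each) in every library, with KO left of WT and pre-cDC2 left of pre-cDC1. Points are libraries and bars are group means. Lyz2 and Ear2 sit lower in every pre-cDC2 library than in any pre-cDC1 library, and Ms4a4c and Ms4a6c sit higher.

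Lyz2 encodes lysozyme M, a secreted enzyme that cuts bacterial cell walls, made in large amounts by monocytes, macrophages and neutrophils. Its level was 5.63 and 6.22 log2 RPKM in KO pre-cDC2, against 10.24, 9.82 and 10.19 in KO pre-cDC1. In WT mice it was 7.65 and 5.82 log2 RPKM in pre-cDC2, against 10.67, 10.80 and 10.62 in pre-cDC1. All 4 pre-cDC2 libraries lay below all 6 pre-cDC1 libraries, by a wide gap. The difference was -4.16 ± 0.44 (SE, 17.9-fold lower, adjusted p = 0.000311 by limma) in KO mice and -3.96 ± 0.44 (15.6-fold lower, adjusted p = 0.000629 by limma) in WT mice. By mean level it ranked 27 of 14787 genes in pre-cDC1 of KO mice and 20 in that of WT mice, so a gene often used to mark macrophages and monocytes was among the most abundant transcripts of pre-cDC1. In pre-cDC2 it ranked 726 in KO mice and 344 in WT mice. Without WT pre-cDC2 replicate 2 the WT difference was -4.87, and without replicate 3 it was -3.05, with adjusted p-values by limma of 1.52e-05 and 0.000298. The pre-cDC2 replicate with the most Lyz2 had 3620 reads, still fewer than the 11683 of the lowest pre-cDC1 library.

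Lyz2 lies on chr10:117277331-117282321 (GRCm38), next to Lyz1, a near-identical lysozyme gene of the gut whose reads can be exchanged with those of Lyz2. Lyz1 had 1 to 15 reads in pre-cDC2 libraries and 393 to 651 in pre-cDC1 libraries, and its differences were -7.55 ± 0.52 in KO mice and -6.03 ± 0.52 in WT mice (adjusted p = 2.69e-05 and 0.000145 by limma). The split of reads between the 2 lysozyme genes is uncertain, since the sources used here do not give how reads that map to several places were handled. Both genes differed in the same direction, and Lyz1 reads were few beside those of Lyz2.

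Ear2 encodes a ribonuclease of the eosinophil-associated family, and its transcript is known from non-classical monocytes as well as eosinophils. Recovered reads were 0 and 1 in KO pre-cDC2, against 262, 189 and 241 in KO pre-cDC1. In WT mice they were 2 and 0 in pre-cDC2, against 111, 182 and 140 in pre-cDC1. The transcript was thus close to absent from the reads of every pre-cDC2 library and present in every pre-cDC1 library. Corrected for depth, the pooled read ratio was 464-fold lower in KO pre-cDC2 than in KO pre-cDC1 (exact 95% interval 83.0 to 18340) and 192-fold lower in WT pre-cDC2 than in WT pre-cDC1 (52.7 to 1587), and these intervals cover counting error only. Limma called Ear2 in KO mice (adjusted p = 0.000213) and in WT mice (adjusted p = 0.000605), with the fitted size depending on the value set for 0 reads. It was called in every one of the 23 alternative settings in both genotypes. The fitted WT difference was -9.26 without WT pre-cDC2 replicate 2 and -6.48 without replicate 3 (adjusted p = 0.000282 and 0.00263 by limma). Ear2 lies on chr14:44102654-44103534 in a cluster of near-identical genes, so the reads of single family members are uncertain. Of the 5 Ear genes of the table, Ear2 was the only 1 that passed the filter, and Ear1, Ear6 and Ear10 had at most 1 read in any library while Ear14 had at most 5.

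S100a8 and S100a9 encode the partners of calprotectin, the calcium-binding complex that fills neutrophils and is also made by classical monocytes. S100a8 was at 3.46 and 4.06 log2 RPKM in KO pre-cDC2, 4.89 and 4.55 in WT pre-cDC2, 4.59, 4.26 and 4.10 in KO pre-cDC1 and 4.58, 4.58 and 4.63 in WT pre-cDC1. S100a9 was at 3.20 and 4.10 in KO pre-cDC2, 4.78 and 3.97 in WT pre-cDC2, 4.37, 3.80 and 4.04 in KO pre-cDC1 and 4.54, 4.61 and 4.43 in WT pre-cDC1. Both genes were thus present in every library, at 47 reads or more, and the precursors overlapped in both genes, except for S100a8 in KO mice. The S100a8 difference between pre-cDC2 and pre-cDC1 was -0.55 ± 0.22 in KO mice (adjusted p = 0.109 by limma) and 0.12 ± 0.22 in WT mice (adjusted p = 0.787 by limma). For S100a9 it was -0.42 ± 0.31 in KO mice and -0.15 ± 0.31 in WT mice (adjusted p = 0.394 and 0.822 by limma). When libraries were centred on their medians, S100a8 was called lower in KO pre-cDC2 (-0.75, adjusted p = 0.0415 by limma), and scaled to total reads the WT difference of S100a9 was 0.06. Centring moved the median of all tested genes by -0.19 in KO mice, and scaling to total reads moved it by 0.26 in KO mice and 0.21 in WT mice, so differences of this size between the precursors rest on the scaling.

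The partners kept close to each other within a library. S100a8 exceeded S100a9 by -0.04 to 0.58 log2 RPKM, a range taken over all 10 libraries. Both lie on chromosome 3, S100a8 at chr3:90668978-90670035 and S100a9 at chr3:90692632-90695721. Of the 14 S100a genes of the table, 8 passed the filter, and S100a11, S100a10 and S100a6 were the most abundant of them. S100a10 and S100a6 were called higher in KO pre-cDC2 than in KO pre-cDC1 (1.79 ± 0.22 and 1.77 ± 0.27, adjusted p = 0.00067 and 0.00169 by limma), whereas S100a11 was called lower (-0.92 ± 0.22, adjusted p = 0.016 by limma). In WT mice S100a6 was the gene of these 3 that was called (1.15 ± 0.27, adjusted p = 0.023 by limma). The S100 genes of the table thus did not move as a block between the precursors.

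Fn1 encodes fibronectin, F13a1 the catalytic subunit of coagulation factor XIII and Vcan the proteoglycan versican, matrix and clotting products that classical monocytes are known to transcribe. Fn1 had 41 and 102 reads in KO pre-cDC2, against 9, 0 and 11 in KO pre-cDC1. It had 287 and 37 reads in WT pre-cDC2, against 14, 12 and 33 in WT pre-cDC1. Every pre-cDC2 library held a higher Fn1 level than any pre-cDC1 library, in WT mice by a small margin, and the pre-cDC2 replicates lay far apart. The log2 difference was 4.45 ± 1.82 in KO mice (adjusted p = 0.121 by limma) and 2.12 ± 1.82 in WT mice (adjusted p = 0.524 by limma), so neither passed the test. The WT difference was 0.80 without WT pre-cDC2 replicate 2 and 3.45 without replicate 3, and the KO difference was 2.60 without KO pre-cDC1 replicate 2. With 1 RPKM added before the log2, the differences were 0.63 in KO mice and 0.69 in WT mice.

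F13a1 had 44 and 221 reads in KO pre-cDC2, against 3, 0 and 17 in KO pre-cDC1. It had 350 and 34 reads in WT pre-cDC2, against 30, 61 and 90 in WT pre-cDC1. The groups did not overlap in KO mice and overlapped in WT mice. The log2 difference was 5.36 ± 1.78 in KO mice (adjusted p = 0.063 by limma) and 0.59 ± 1.78 in WT mice (adjusted p = 0.884 by limma). The KO difference passed the limma test when values were scaled to total reads (5.62, adjusted p = 0.045), with weights per library (5.14, adjusted p = 0.0369) and when KO pre-cDC1 replicate 3 was left out (6.92, adjusted p = 0.0222). Because KO pre-cDC1 replicate 2 had 0 reads of Fn1 and of F13a1, these fitted sizes depend on the value set for 0 reads, and with 1 RPKM added the F13a1 difference in KO mice was 1.33. Vcan had 1 and 0 reads in KO pre-cDC2, 15 and 0 in WT pre-cDC2, 5, 0 and 0 in KO pre-cDC1 and 0 in each WT pre-cDC1 library, and so was not detectable at this depth in most libraries.

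Fcgr1 encodes Fc gamma receptor I (CD64), a high-affinity receptor for IgG on monocytes and macrophages that is used to tell them from dendritic cells. It had 24 and 27 reads in KO pre-cDC2, against 9, 3 and 0 in KO pre-cDC1. It had 76 and 21 reads in WT pre-cDC2, against 7, 34 and 4 in WT pre-cDC1. The groups did not overlap in KO mice and overlapped in WT mice, where WT pre-cDC1 replicate 2 lay above WT pre-cDC2 replicate 3. The log2 difference was 3.84 ± 1.55 in KO mice (adjusted p = 0.117 by limma) and 1.58 ± 1.55 in WT mice (adjusted p = 0.584 by limma). The KO difference was 2.35 without KO pre-cDC1 replicate 3, the library at 0 reads, and 0.85 with 1 RPKM added before the log2. The WT difference was 0.81 without WT pre-cDC2 replicate 2 and 2.35 without replicate 3. The 4 Fc gamma receptor genes all passed the filter. Fcgr3, an activating receptor of lower affinity, was called higher in KO pre-cDC2 (2.80 ± 0.85, adjusted p = 0.0438 by limma), and Fcgr4, a receptor of non-classical monocytes, was called lower there (-3.57 ± 0.87, adjusted p = 0.0184 by limma). Fcgr2b, the inhibitory receptor, had 742 to 2056 reads in every library and differed by -0.19 ± 0.30 in KO mice and -0.11 ± 0.30 in WT mice, and none of the 4 was called in WT mice.

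Ms4a6c and Ms4a4c encode membrane proteins of the MS4A family, with 4 membrane-spanning segments, and are abundant in mouse monocytes. Ms4a4c was at 6.24 and 6.23 log2 RPKM in KO pre-cDC2, against 3.76, 3.53 and 3.42 in KO pre-cDC1. It was at 5.42 and 6.89 in WT pre-cDC2, against 4.43, 4.77 and 4.99 in WT pre-cDC1. Every pre-cDC2 library lay above every pre-cDC1 library. The difference was 2.66 ± 0.36 in KO mice (6.34-fold higher, adjusted p = 0.00101 by limma) and 1.42 ± 0.36 in WT mice (2.68-fold higher, adjusted p = 0.0332 by limma). T cell and NK cell markers moved with it: T cell sums were 1958 to 2082 RPKM in KO pre-cDC2 against 47.5 to 53.3 in KO pre-cDC1, and NK cell sums were 1115 to 1250 RPKM in KO pre-cDC2 against 39.4 to 42.6 in KO pre-cDC1. The KO call was kept in all 23 alternative settings and the WT call in 8 of them, with adjusted p-values by limma of 0.000492 to 0.188. Without WT pre-cDC2 replicate 2 the WT difference was 2.16, and without replicate 3 it was 0.69 (adjusted p = 0.105 by limma). WT pre-cDC2 replicate 2 had the lowest Ms4a4c of the pre-cDC2 libraries, and it also had the lowest T cell marker sum; the part of T cell and NK cell markers in the Ms4a4c and Ms4a6c values was not tested.

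Ms4a6c was at 5.33 and 5.56 log2 RPKM in KO pre-cDC2, against 4.25, 3.63 and 4.09 in KO pre-cDC1. It was at 6.57 and 5.13 in WT pre-cDC2, against 4.68, 5.05 and 4.84 in WT pre-cDC1. The pre-cDC2 libraries were again the higher ones in both genotypes, by a narrow margin in WT mice. The difference was 1.46 ± 0.36 in KO mice (2.75-fold higher, adjusted p = 0.0204 by limma) and 0.99 ± 0.36 in WT mice (adjusted p = 0.119 by limma). The KO call was lost in 5 of the 23 settings, among them those that left out KO pre-cDC2 replicate 1 (adjusted p = 0.0949 by limma), KO pre-cDC2 replicate 2 (0.130) or KO pre-cDC1 replicate 2 (0.0636). The WT difference was 0.28 without WT pre-cDC2 replicate 2 (adjusted p = 0.523 by limma) and 1.71 without replicate 3 (adjusted p = 0.00503 by limma). Ms4a6c and Ms4a4c therefore disagreed on the place of the unusual WT library, which was the highest of the pre-cDC2 libraries for Ms4a6c and the lowest for Ms4a4c.

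Ms4a4c lies at chr19:11404770-11427246 and Ms4a6c at chr19:11469366-11482192, within a cluster of Ms4a genes whose similar sequences leave the assignment of some reads uncertain. Of the 19 Ms4a genes of the table, 7 passed the filter. Ms4a6b and Ms4a4b, relatives that T cells also make, were the other abundant ones. Ms4a6b was higher in pre-cDC2 by 3.98 ± 0.50 in KO mice and 2.41 ± 0.50 in WT mice (adjusted p = 0.000703 and 0.0142 by limma). Ms4a4b was higher in pre-cDC2 by 7.89 ± 1.05 in KO mice and 4.78 ± 1.05 in WT mice (adjusted p = 0.000919 and 0.0185 by limma). Reads of Ms4a4b were 8371 and 7144 in KO pre-cDC2 and 713 and 13259 in WT pre-cDC2, so that the low library was again WT pre-cDC2 replicate 2, as for the T cell genes.

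Of the 9 tested genes, pre-cDC2 and pre-cDC1 libraries did not overlap for 8 in KO mice (5 higher and 3 lower in pre-cDC2) and for 5 in WT mice (3 higher and 2 lower). Over all tested genes 51.7% did not overlap in KO mice (28.6% higher and 23.1% lower) and 38.7% in WT mice (20.2% higher and 18.5% lower). The genes thus fell into separate kinds. An enzyme and a ribonuclease were lower in pre-cDC2, and a pair of membrane proteins were higher in at least 1 genotype. The calprotectin pair passed the test in neither genotype with the deposited values, though S100a8 lay lower in KO pre-cDC2 without overlap. Fn1, F13a1 and Fcgr1 had higher means in pre-cDC2 without passing the test.

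The second question was whether these genes differ between KO and WT precursors. In pre-cDC1, limma called none of the 9 tested genes, where it called 0.0271% of all genes. Voom on the recovered reads called 0 genes in all for this comparison, so its count among the 9 adds nothing. Unadjusted p was under 0.05 for 3 of the 9, F13a1, Ms4a6c and Ms4a4c, and for 9.03% of all genes. The values lay lower in KO pre-cDC1 for 8 of the 9 genes, Ear2 excepted, and for 50.6% of all genes, and the median log2 difference was -0.87 against 0 over all tested genes. For 5 genes every KO library lay below every WT library, namely Lyz2, S100a9, F13a1, Ms4a6c and Ms4a4c, where 9.27% of all genes did so in that direction.

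Ms4a4c was at 3.76, 3.53 and 3.42 log2 RPKM in KO pre-cDC1, against 4.43, 4.77 and 4.99 in WT pre-cDC1, a difference of -1.16 ± 0.32 (adjusted p = 0.260 by limma). The margin between the nearest KO and WT libraries was wider than the spread within either group. It passed the test when WT pre-cDC2 replicate 2 (adjusted p = 0.0247 by limma) or replicate 3 (0.025) was left out of the fit, libraries that enter this comparison only through the shared estimate of the spread. Ms4a6c was at 4.25, 3.63 and 4.09 in KO pre-cDC1, against 4.68, 5.05 and 4.84 in WT pre-cDC1, a difference of -0.87 ± 0.33 (adjusted p = 0.452 by limma). F13a1 had 20 reads summed over the KO pre-cDC1 libraries and 181 over the WT pre-cDC1 libraries, with a difference of -4.50 ± 1.60 (adjusted p = 0.418 by limma). That difference was -2.80 without KO pre-cDC1 replicate 2, the library at 0 reads, -6.06 without replicate 3, and -0.77 with 1 RPKM added before the log2. Lyz2 averaged 1095 ± 166 RPKM in KO pre-cDC1 and 1660 ± 109 RPKM in WT pre-cDC1 (SD, n = 3 each), a difference of -0.61 ± 0.39 on the log2 scale (adjusted p = 0.723 by limma). Ear2 went the other way in value, at 35.5 ± 8.8 RPKM in KO pre-cDC1 and 21.6 ± 5.9 RPKM in WT pre-cDC1, and these groups overlapped (0.72 ± 0.78, adjusted p = 0.868 by limma).

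**Figure D2:**
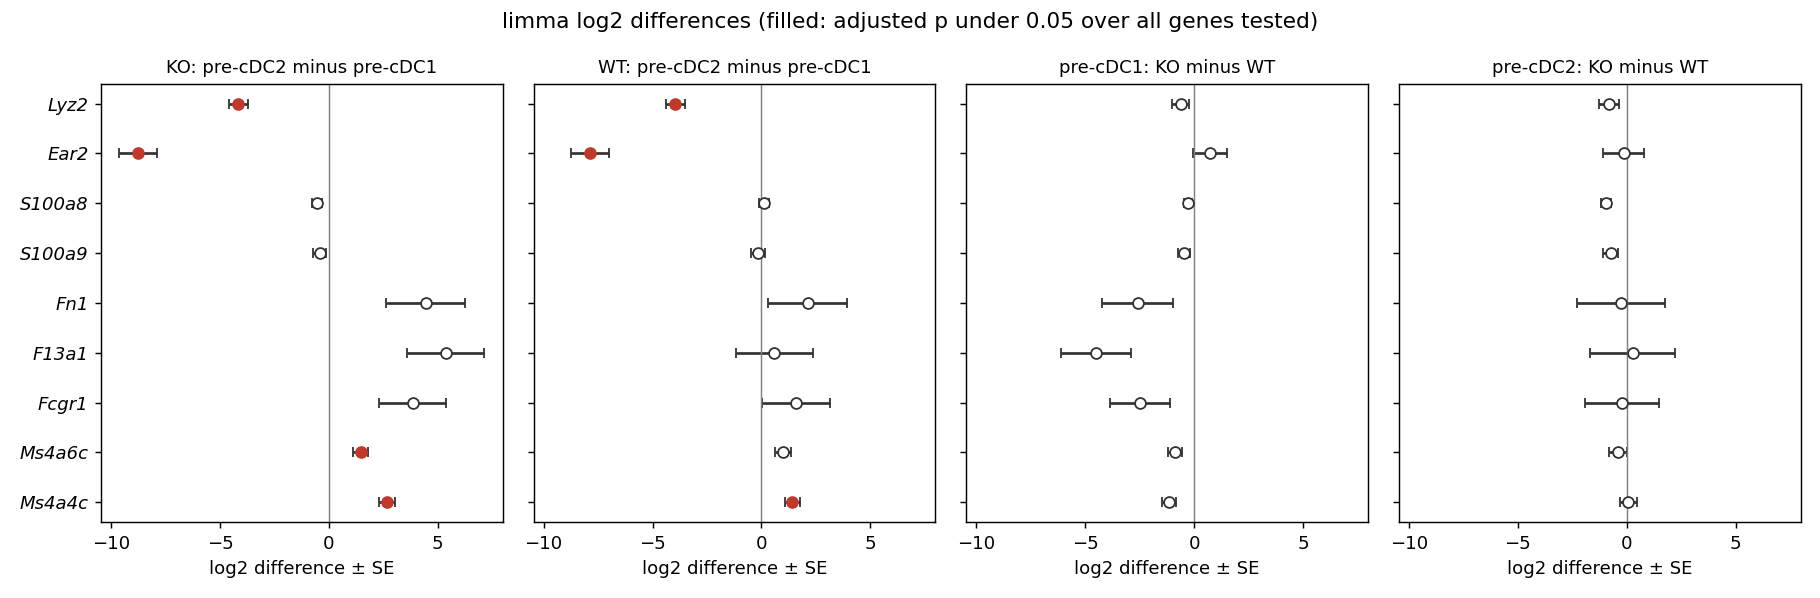
Log2 difference of KO against WT for the 9 tested genes in pre-cDC2 and in pre-cDC1, with error bars of 1 SE from limma. In pre-cDC1, 8 of 9 genes lie below 0, and no gene passed an adjusted p of 0.05 in either precursor.

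In pre-cDC2 limma called none of the 9 tested genes between KO and WT, where it called 0.0676% of all genes. Voom called none of the 9 and only 4 genes in all. Unadjusted p was under 0.05 for S100a8 alone, at 3.46 and 4.06 log2 RPKM in KO pre-cDC2 against 4.89 and 4.55 in WT pre-cDC2 (-0.96 ± 0.24, adjusted p = 0.412 by limma), and for 6.67% of all genes. It was the 1 gene of the 9 whose groups did not overlap, in the lower direction, where 14.6% of all genes did so. Its partner S100a9 differed by -0.73 ± 0.34 (adjusted p = 0.761 by limma), with overlapping groups. Values were lower in KO pre-cDC2 for 7 of the 9 genes and for 48.7% of all genes, with medians of -0.26 and 0. Erythroid markers differed between the same libraries, at 34.6 and 65.5 RPKM in KO pre-cDC2 against 6.39 and 6.49 in WT pre-cDC2, and their part in the S100a8 values was not tested. Of the 9 erythroid genes tested, limma called 2 higher in KO pre-cDC2 and voom called 0. They were Hba-a1 (3.46 ± 0.44, adjusted p = 0.0283 by limma), an alpha globin, and Slc4a1, the red cell anion exchanger, with 100 and 230 reads in KO pre-cDC2 against 0 and 0 in WT pre-cDC2. For Lyz2 and Ms4a6c the outcome turned on WT pre-cDC2 replicate 2: set against it alone, KO pre-cDC2 differed by -1.72 and -1.12 (adjusted p = 0.0108 and 0.0497 by limma), and set against replicate 3 alone by 0.10 and 0.31. A fit with a single WT pre-cDC2 library takes the spread of that group from the other groups.

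The third comparison asked whether the KO to WT difference itself was unlike in pre-cDC2 and pre-cDC1. Limma and voom called none of the 9 genes for this difference of differences, where limma called 0.0203% of all genes and voom 1 gene in all. Unadjusted p by limma was under 0.05 for Ms4a4c alone and for 4.82% of all genes. The Ms4a4c difference of differences was 1.24 ± 0.51 (adjusted p = 0.987 by limma), and it was called without WT pre-cDC2 replicate 3 (1.98, adjusted p = 0.0144 by limma). Lyz2 had -0.20 ± 0.62 and Ms4a6c had 0.47 ± 0.51, both smaller than their errors.

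Markers of other cells were set beside these values. The classical monocyte list held 30 genes, of which 25 were tested. Between KO pre-cDC2 and KO pre-cDC1, 12 were called higher and 3 lower in pre-cDC2, where 10.7% and 10.1% of all genes were, with a median of 1.42. Between WT pre-cDC2 and WT pre-cDC1, 5 were called higher and 2 lower, where 4.88% and 6.59% of all genes were, with a median of 0.73. Ly6c2, the Ly6C gene itself, was higher by 6.35 ± 0.29 in KO mice and 6.18 ± 0.29 in WT mice (adjusted p = 1.86e-06 and 3.15e-06 by limma). It is counted among the genes called higher, but its difference goes with the Ly6C label that defines the pre-cDC2 libraries. Cybb (the NADPH oxidase subunit gp91phox) was also called higher, by 3.97 ± 0.37 in KO mice and 2.33 ± 0.37 in WT mice (adjusted p = 0.000136 and 0.00408 by limma). Tgfbi, a secreted matrix protein made by monocytes and macrophages, was called lower like Lyz2, with differences of -6.30 ± 0.51 in KO mice and -5.67 ± 0.51 in WT mice (adjusted p = 6.05e-05 and 0.000185 by limma). Cebpb, a transcription factor of monocytes, had at most 3 reads in any library.

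The summed level of the classical monocyte genes was 2197 and 2310 RPKM in KO pre-cDC2, 3003 and 2079 in WT pre-cDC2, 2064 to 2203 in KO pre-cDC1 and 2062 to 2193 in WT pre-cDC1. Much of it came from Mpeg1 and Ly6c2, which moved in opposite directions. Mpeg1 was at 7.61 to 9.08 log2 RPKM in pre-cDC2 and 10.22 to 10.55 in pre-cDC1, and Ly6c2 at 9.22 to 9.62 and 2.70 to 3.80. Mean log2 RPKM over the list was 2.82 and 3.02 in KO pre-cDC2 and 3.80 and 2.71 in WT pre-cDC2. It was 1.12 to 1.72 in KO pre-cDC1 and 2.35 to 2.74 in WT pre-cDC1. WT pre-cDC2 replicate 2 was the highest of the 10 libraries on this sum, as on 9 of the 10 genes among pre-cDC2. Its sum of 13 core cDC genes was 11440 RPKM, against 3855 in WT pre-cDC2 replicate 3 and 3739 to 4005 in KO pre-cDC2. Its sum of 12 NK cell genes was 87.3 RPKM, against 1287 in WT pre-cDC2 replicate 3 and 1115 to 1250 in KO pre-cDC2. The part of these cell markers in the Lyz2 and Ms4a6c values of that library was not tested.

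Lists of other cell types moved between the same precursors. Over all genes, limma called 10.7% higher in pre-cDC2 in KO mice and 4.88% in WT mice. T cell genes were called higher in pre-cDC2 for 14 of 15 in KO mice (median 8.99) and 9 of 15 in WT mice (median 5.44), against 12 and 1 by voom. NK cell genes were called higher for 11 of 12 in KO mice (median 8.49) and 2 of 12 in WT mice (median 3.69), against 11 and 1 by voom. Plasmacytoid DC genes were called higher for 9 of 10 in KO mice and 8 of 10 in WT mice by both tools. Core cDC genes were called lower for 11 of 13 in each genotype, where 10.1% of all genes were in KO mice and 6.59% in WT mice. That list holds genes of the cDC1 line, such as the receptor Xcr1, so its count does not describe only genes shared by both lines. Plasmacytoid DC sums were 447.7 and 551.2 RPKM in KO pre-cDC2, 985.4 and 371.1 in WT pre-cDC2, 61.9 to 76.5 in KO pre-cDC1 and 90.1 to 112.7 in WT pre-cDC1. The part of these lists in the differences of Lyz2, Ear2, Ms4a6c and Ms4a4c was not tested.

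Between KO pre-cDC1 and WT pre-cDC1, limma called none of the 25 classical monocyte genes, and voom called 0 genes in all. Unadjusted p was under 0.05 for 11 of the 25, where it was for 9.03% of all genes, and 22 of the 25 had lower values in KO pre-cDC1, where 50.6% of all genes did, with a median of -0.88. The 3 genes with the smallest p were Ccl9, Emilin2 and Cybb, at -2.90 ± 0.45, -1.70 ± 0.29 and -1.91 ± 0.33 (adjusted p = 0.0643, 0.0763 and 0.0766 by limma). Markers of other cells had low values in the same libraries: 14 of 15 T cell genes (median -1.61) and 12 of 12 NK cell genes (median -2.35) lay lower in KO pre-cDC1. Their summed levels were 47.5 to 53.3 RPKM in KO pre-cDC1 against 64.9 to 70.4 in WT pre-cDC1 for T cell genes. For NK cell genes they were 39.4 to 42.6 RPKM in KO pre-cDC1 against 52.1 to 61.3 in WT pre-cDC1. Cd8a supplied most of the T cell sum, at 5.42 to 5.64 log2 RPKM in KO pre-cDC1 and 5.47 to 5.74 in WT pre-cDC1. Klrk1 supplied most of the NK cell sum, at 5.10 to 5.29 and 5.12 to 5.29. Mean log2 RPKM over the T cell list was -2.56 to -1.92 in KO pre-cDC1 and -1.15 to 0.36 in WT pre-cDC1. For the NK cell list it was -2.94 to -1.39 and 0.32 to 0.68. At 0 reads were 2 to 3 T cell genes and 1 to 6 NK cell genes in KO pre-cDC1 libraries, against 0 to 1 of each in WT pre-cDC1 libraries. Erythroid genes went the other way, at 39.0 to 75.7 RPKM in KO pre-cDC1 against 15.0 to 24.9 in WT pre-cDC1. The part of these markers in the lower values of Ms4a4c, Ms4a6c and Lyz2 was not tested.

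**Figure D3:**
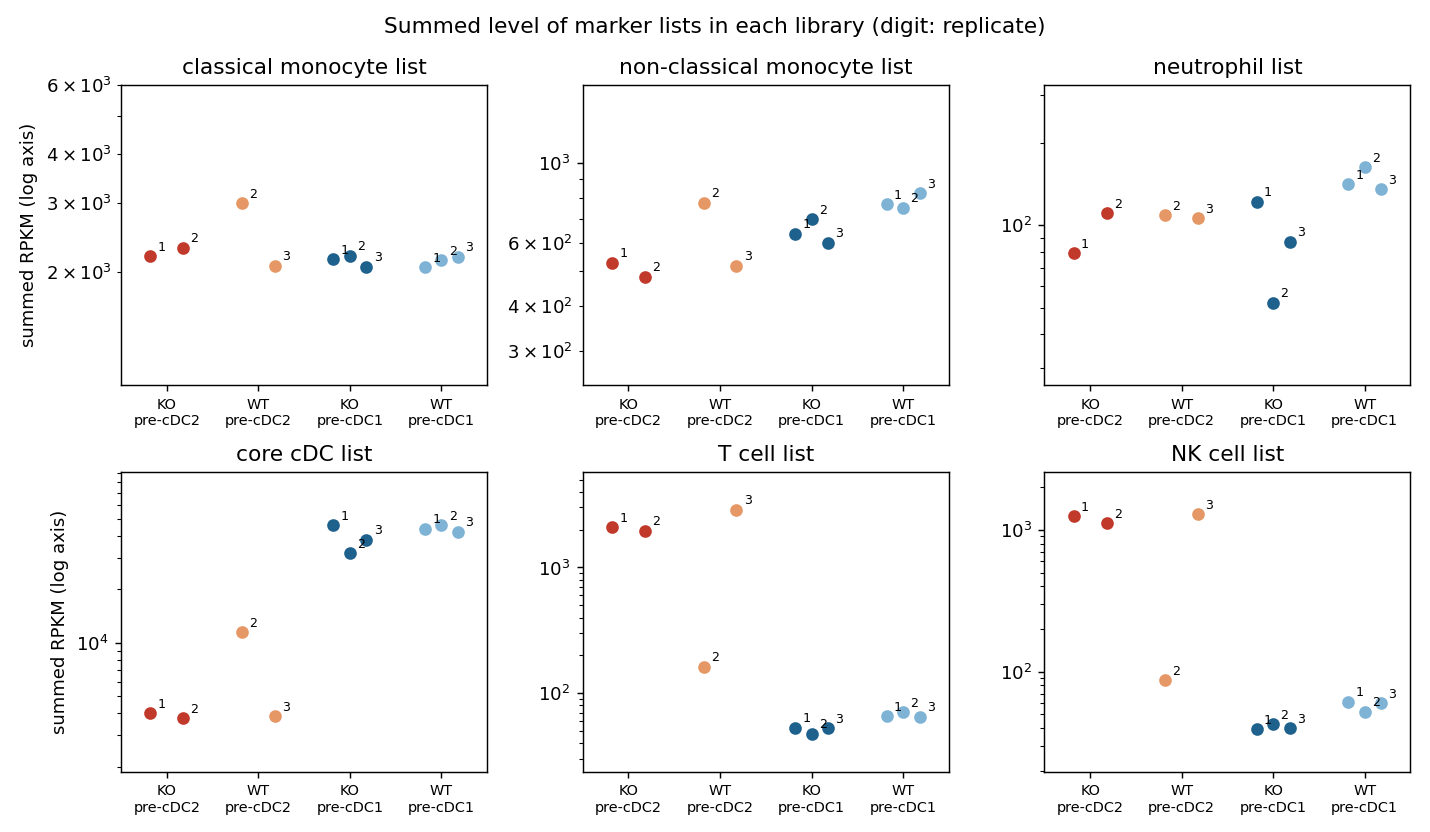
Summed RPKM of marker lists (log axis) in every library, with KO left of WT and pre-cDC2 left of pre-cDC1. WT pre-cDC2 replicate 2 has the lowest T cell and NK cell sums of the pre-cDC2 libraries, at 162.3 and 87.3 RPKM, and the highest classical monocyte sum, at 3003 RPKM.

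The neutrophil list held 30 genes, of which 10 were tested, and limma and voom called none of them in any of the 5 comparisons. Over all genes voom called 0 between KO and WT pre-cDC1, 4 between KO and WT pre-cDC2 and 1 for the difference of differences. Among these 10, unadjusted p by limma was under 0.05 for 5 between KO and WT pre-cDC1, where it was for 9.03% of all genes. Between WT pre-cDC2 and WT pre-cDC1 it was for 2, where it was for 25.2% of all genes. In the other comparisons it was for 0, where it was for 4.82% to 33% of all genes. The summed level of the list was 78.9 and 110.5 RPKM in KO pre-cDC2, 108.8 and 106.2 in WT pre-cDC2, 52.2 to 122.0 in KO pre-cDC1 and 135.6 to 162.7 in WT pre-cDC1. Secondary granule genes supplied part of this in all 10 libraries, with 190 to 949 reads of Ngp, 229 to 678 of Ltf and 38 to 185 of Camp. Bpi, an antibacterial granule protein, was at 0 in all libraries, and Ly6g, the surface marker of neutrophils, had 1 to 7 reads. Camp, Ngp and Lcn2 had lower values in KO pre-cDC1 than in WT pre-cDC1 (-1.10 ± 0.30, -1.17 ± 0.40 and -0.94 ± 0.38), next to S100a9 at -0.46 ± 0.28, and none of these was called (adjusted p = 0.246, 0.387, 0.498 and 0.695 by limma).

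The non-classical monocyte list held 12 genes, of which 9 were tested, and it holds the genes nearest to Ear2 in known expression. Between KO pre-cDC2 and KO pre-cDC1, 3 were called higher and 3 lower, where 20.8% of all genes were called, and between WT pre-cDC2 and WT pre-cDC1, 1 was called higher and 1 lower, where 11.5% were. Treml4, a receptor of non-classical monocytes and CD8+ dendritic cells, was lower in pre-cDC2 as Ear2 was, with differences of -8.06 ± 0.22 in KO mice and -10.16 ± 0.22 in WT mice (adjusted p = 7.86e-08 and 3.09e-08 by limma). It was also called higher in KO pre-cDC2 than in WT pre-cDC2 (2.13 ± 0.24, adjusted p = 0.0162 by limma), with 14 and 8 reads in KO pre-cDC2 against 3 and 3 in WT pre-cDC2, and voom did not call it. Spn (CD43) and Cx3cr1 (the fractalkine receptor) were instead called higher in KO pre-cDC2 than in KO pre-cDC1, by 3.35 ± 0.35 and 3.61 ± 0.46 (adjusted p = 0.000294 and 0.000769 by limma). In WT mice Spn was also called higher in pre-cDC2 (1.72 ± 0.35, adjusted p = 0.014 by limma). Cx3cr1 had 1.55 ± 0.46 there and was not called (adjusted p = 0.0614 by limma). The list was thus split, with Ear2 on the side of Treml4.

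Genes with the pattern most like that of single members were found from the root mean square difference of mean-centred log2 RPKM over the 10 libraries, among 8664 genes. For Lyz2 they were H2-Eb1 at 0.22, Slamf8 at 0.24 and H2-Ab1 at 0.31, and H2-Eb1 and H2-Ab1 encode chains of MHC class II. For Ear2 they were Cyp8b1 at 0.67, Zfp366 at 0.69 and Rab7b at 0.83. For Ms4a6c they were Irf2bp2 and Milr1 at 0.23 and Slc15a4 at 0.26. For S100a8 they were Kdelr1 at 0.11, Rhog at 0.14 and Ascc1 at 0.14, and for Fn1 they were Ighj1 at 1.03, Nxpe1-ps at 1.09 and Clec10a at 1.10. The Fn1 and Ear2 matches had larger differences than the others, but the measure is not scaled to how much each gene varied between libraries. H2-Eb1 itself was at 8.54 and 8.79 log2 RPKM in KO pre-cDC2 and 10.58 and 8.84 in WT pre-cDC2. It was at 13.26, 12.72 and 13.07 in KO pre-cDC1 and 13.18, 13.29 and 13.05 in WT pre-cDC1. It shared with Lyz2 the gap between precursors and the high WT pre-cDC2 replicate 2, which follows from its choice by likeness in these same values.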

How the data were processed

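Per the labels' protocols, libraries were made from 2 ng of total RNA with SMARTSeq v2 and sequenced as paired ends. The submitters' processing notes name STAR 2.3, featureCounts 1.5.0, R 3.3.3, edgeR and the build GRCm38 (mm10). The authors deposited 1 table of log2 RPKM for all 10 libraries; the sources used here do not give strand settings or the handling of reads with several matches. Whole reads were recovered from the deposited values, within 0.001 reads, with GENCODE exon lengths for the 49035 of 52550 genes that had one; of the other 3515 genes, 1787 were solved by a search for a length that gives whole reads, 1 was not solved, and the remainder by their lowest value, shared between libraries and taken as 0 reads. The filter kept the 14787 genes that exceeded 0 log2 RPKM in 2 libraries or more, and these were fitted with limma 3.58.1 in R 4.3.3 as 4 group means with a trended variance (6 residual and 3.31 prior degrees of freedom), for 5 comparisons, with Benjamini-Hochberg adjustment over all genes tested. The code was tested on simulated data. The precision is that of 7861652 to 13177281 reads per library and 2 or 3 libraries per group; intervals cover counting error only. Members and lists were chosen with earlier results of these data known. All members are named, with at most 4 genes per companion list and comparison by smallest p, at most 4 per family by level, and 3 nearest genes for each of 5 members; 1 gene that this rule names is not reported here. Alternatives covered filters, scaling, variance models, voom, replicate blocks and leaving out each library.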

Additional observations from a re-analysis of the deposited data

How the results depend on the processing

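Over 984 values of the 9 tested genes under alternative settings, 929 kept their direction and their side of the threshold, 20 lost a call, 11 gained one and 24 changed sign, none of which was a called difference. With single libraries left out, the number of the 9 genes called ranged from 0 to 1 for KO against WT pre-cDC1, 0 to 2 for KO against WT pre-cDC2 and 0 to 1 for the difference of differences. Outside those fits, the sign changed for the Fn1 difference of differences with 1 RPKM added (-0.06), for S100a9 between WT pre-cDC2 and WT pre-cDC1 scaled to total reads (0.06), and for Ear2 between KO and WT pre-cDC2 with voom (0.02). With single libraries left out, log2 differences between KO and WT pre-cDC2 spanned -1.54 to 1.25 for Ear2, -1.58 to 1.07 for Fn1, -1.26 to 1.79 for F13a1, -1.72 to 0.10 for Lyz2, -1.0 to 0.54 for Fcgr1, -1.12 to 0.31 for Ms4a6c and -0.65 to 0.82 for Ms4a4c. Between KO pre-cDC2 and KO pre-cDC1 they spanned -0.87 to 0.03 for S100a9, and between WT pre-cDC2 and WT pre-cDC1 -0.05 to 0.29 for S100a8, -0.55 to 0.26 for S100a9 and -0.94 to 2.11 for F13a1. The difference of differences spanned -1.11 to 0.71 for Lyz2, -2.26 to 0.53 for Ear2, -0.72 to 0.18 for S100a9 and -0.25 to 1.18 for Ms4a6c. Leaving out a library means fewer samples; the cause of the other changes was not tested.

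Same-numbered libraries of different groups did not deviate together (correlations of -0.03 to 0.032, and -0.02 to 0.028 within a genotype). Such correlations cannot exclude a shared animal. Sample descriptions give the same number to libraries of both precursors, but no label states that they share an animal. The main fit took no pairing, and the number was used as a block in alternatives. With the number as a replicate block, limma called 0 genes between KO and WT pre-cDC1 and 2 between KO and WT pre-cDC2, where it called 4 and 10 without it, and 2660 and 1164 between the precursors of KO and WT mice. With genotype and number together as a block the last 2 counts were 1094 and 217. Under the number block Ms4a4c in WT mice had 1.38 (adjusted p = 0.058 by limma); under the joint block it had 1.27 (0.149), and Ms4a6c in KO mice had 1.51 (0.0831). Over all alternatives, the genes called numbered 0 to 114 for KO against WT pre-cDC1, 0 to 1048 for KO against WT pre-cDC2 and 0 to 495 for the difference of differences. Depth limits Vcan, Fcgr1, Fn1 and F13a1, with libraries at or near 0 reads.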
